A study of Mus musculus with 14 samples.

Results

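The 10 liver tumours of the series were set against its 4 normal livers, with tumours marked Grow and tumours marked Regress weighted as equal groups. They were chosen by the group named in each sample's title, and together they are all 14 samples of the series. RNA was sequenced from snap-frozen liver tissue. The mice were C3HeB/FeJ males, of an inbred strain that forms liver tumours with age without a carcinogen. The labels give an age of 18 months, a tumour check at 10 months and 6 cycles of 28 days with injections on 5 days. How a tumour was scored as growing or regressing is not defined there, and no transgene, clone or pooling of animals is given. The 6 Grow tumours came from mice given the solvent DMSO (Grow 1 and 5), SAHA at 85 mg/kg with TMZ at 22 mg/kg (Grow 2, 3 and 4) or SAHA at 100 mg/kg (Grow 6). The 4 Regress tumours came from mice given TMZ at 31 mg/kg (Regress 1 and 3), phosphate citrate buffer of pH 6.4 (Regress 2) or DMSO (Regress 4). The 4 Normal livers came from mice given that buffer. SAHA is an inhibitor of histone deacetylases and TMZ, temozolomide, is a drug that alkylates DNA. Since 9 of the 10 tumours had a drug or solvent that no normal liver had, tumour and injection cannot be told apart for them.

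Hepatocytes of an adult liver rarely divide. They make plasma proteins and bile acids, break down amino acids and drugs, and follow a daily clock. Liver tumours of C3H mice are known for activating mutations of Hras, a switch of the Ras, Raf, Mek and ERK kinase pathway. Hepatocellular tumours in general are known to regain fetal liver genes such as Afp, to re-enter the cell cycle and to store lipid.

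The libraries held 4707063 to 13394301 estimated counts. Levels are given as CPM, counts scaled to the normalised library size, which is not divided by gene length and so does not rank genes against each other. All 12 hepatocyte markers were measured in tumours and normal livers, and none stood at 0 in every library. Bulk tissue cannot tell fewer cells of a type from less RNA per cell. Their summed level was 63434 to 318678 CPM in Grow, 96637 to 230514 CPM in Regress and 88154 to 127484 CPM in Normal. Albumin (Alb), the main plasma protein, stood at 50742 CPM in Regress 1, 26020 and 26481 CPM in Grow 3 and 4, and 111445 to 187356 CPM in the other 7 tumours, against 28650, 31026, 44750 and 53813 CPM in Normal 1 to 4. Grow 3 and 4 were alike, with a chi-square per degree of freedom of 19.26 between them, against 29.84 to 318 for other pairs of Grow libraries. That is still more than sampling noise, but 2 preparations of 1 tumour could exceed it too, so it cannot show that they are 2 tumours. Both were kept as labelled. With their counts summed into 1 library, edgeR called 216 genes in tumours against normal liver, against 285 with both kept. Normal 4 and Regress 2 carry the same code in their labels, which do not say what it identifies. Nothing in the labels says that the samples of a group came from separate animals, so a p-value covers only how far these samples vary, which may be technical variation.

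More genes were called higher than lower in tumours, and the rises were larger than the falls. Of 12300 features tested, 285 (2.32%) passed a Benjamini-Hochberg adjusted p under 0.05 by edgeR's quasi-likelihood test, 195 (1.59%) higher and 90 (0.732%) lower in tumours. The median log2 fold change, tumours minus normal liver, was 3.06 among the higher and -1.51 among the lower ones, against 0.01 over all features. The balance of calls turned without 1 normal liver, with 3 higher and 5 lower without Normal 1, 25 and 33 without Normal 2 and 6 and 8 without Normal 4, and limma-voom gave 45 and 82. Of the 285 genes, 137 lay outside the range of the normal livers in all 10 tumours, as did 2.02% of all features. Of the 195 higher genes, 85 (43.6%) lay above all 4 normal livers in all 10 tumours, and of the 90 lower genes, 52 (57.8%) lay below them in all 10. Over all features, called or not, 134 (1.09%) lay above and 115 (0.935%) below in this way. A further 100 higher and 26 lower genes were outside the normal range in 9 of the 10 tumours. The exception was Regress 1 for 82 of these 100 and 12 of these 26. Each of the 285 genes had the same sign in Grow and in Regress against Normal, which share their controls.

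To see how far each tumour took part without having helped to choose the genes, genes were called again with that tumour left out. Regress 1 stood apart: of the 580 genes called higher without it, it exceeded every normal liver in 195 (33.6%), and of the 387 called lower it was below every normal liver in 152 (39.3%). In the other 9 tumours these shares were 83.3% to 98.7% of the higher and 72.4% to 100% of the lower genes. The gene sets are unlike, since leaving out another tumour called only 63 to 203 higher and 35 to 127 lower genes. Those smaller sets had passed with Regress 1 in the fit, so the shares are not compared like for like. In Regress 1 the median log2 difference from the normal livers was 0.15 over the higher genes and -0.31 over the lower ones, against 2.52 and -1.45 in the tumours that called them. The Pearson correlation of its log2 CPM with the mean of the normal livers was 0.930, against 0.808 to 0.897 for the other tumours and 0.913 to 0.967 for a normal liver and the mean of the other 3. Its median absolute log2 difference from that mean, 0.532, was not the smallest, with 0.419 to 0.667 in the other tumours and 0.248 to 0.603 in normal livers.

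**Figure D1:**
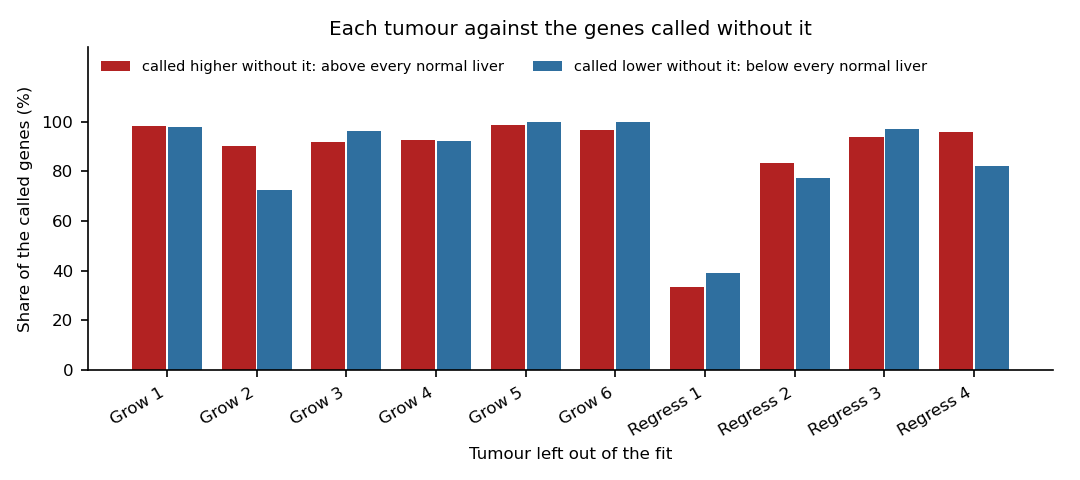
Share (%) of the genes called with 1 tumour left out for which that tumour lay above (red, genes called higher) or below (blue, genes called lower) all 4 normal livers, for Grow 1 to 6 and Regress 1 to 4. Regress 1 reached 33.6% and 39.3%, while the other 9 tumours reached 72.4% or more.

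The calls rested on few libraries. Without Regress 1, 991 genes were called, including all 285. Without Normal 1, 2, 3 or 4 edgeR called 8, 58, 0 and 14 genes (without Normal 3, 1752 had an unadjusted p under 0.05). Without Grow 1, Grow 5, Grow 6 or Regress 3 it called 161, 119, 98 and 118. With both libraries that share a code left out it called 0, while 1493 had an unadjusted p under 0.05. Every one of the 285 genes kept its direction in that fit. They had been called with the same remaining libraries, so the kept direction is no test.

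Many genes of mitosis rose in tumours, and few of DNA replication passed the test. Cyclin D1 (Ccnd1), which starts the G1 phase by binding Cdk4 and Cdk6, stood at 33.5 to 52.4 CPM (median 39.5) in Grow and at 11.4, 50.4, 21.6 and 46 CPM in Regress 1 to 4, against 4.92, 3.33, 4.18 and 5.53 CPM in Normal 1 to 4. No tumour overlapped the normal livers, and the gap of 1.01 on the log2 scale between Regress 1 and Normal 4 was the ninth widest of the called genes with a symbol. Its log2 fold change was 3.02 ± 0.37 (SE, adjusted p = 0.0109). It was the only one called of 16 tested genes of the G1 cyclins, their kinases and E2F factors, whose median was 0.44. The count was 0 without Normal 3 and 3 without Regress 1.

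Of 33 tested genes of mitosis and the spindle, 18 rose and none fell, with a median log2 fold change of 3.35, and 31 were higher at an unadjusted p under 0.05, against 9.98% of all features. Of the 33, 6 lay above every normal liver in all 10 tumours, as did 1.09% of all features. The 40 measured genes of the list summed to 103 to 188 CPM in Grow and to 34.7, 24.1, 87.6 and 191 CPM in Regress 1 to 4, against 12.8 to 20 CPM in Normal, so Regress 1 and 2 were the nearest to normal liver. The kinase Cdk1, which drives entry into mitosis, stood at 2.94 to 7.66 CPM (median 7.04) in Grow and at 2.17, 1.98, 7.21 and 7.34 CPM in Regress 1 to 4, against 0.702, 0.876, 0.299 and 0.291 CPM in Normal 1 to 4 (3.31 ± 0.52, adjusted p = 0.0173). Every tumour lay above every normal liver, with Regress 1 and 2 the lowest. The mitotic cyclin Ccnb2 stood at 2.17 to 5.27 CPM (median 3.53) in Grow and 1.18, 0.395, 5.15 and 3.1 CPM in Regress, against 0.527, 0.175, 0 and 0.145 CPM in Normal (3.76 ± 0.76, adjusted p = 0.0290), and Regress 2 alone fell within the normal range. The cyclin Ccna2 rose as well (3.88 ± 0.78, adjusted p = 0.0290). Regress 2 was again the lowest tumour, with 0.198 CPM, within the normal range of 0.149 to 0.527 CPM. The spindle checkpoint kinase Bub1b had 98 counts in all tumours and 2 in all normal livers, a ratio of 17 in CPM with an exact 95% interval of 4.59 to 143 that covers counting error only (adjusted p = 0.0290). These levels are low, so the fitted folds of the list depend on a few counts in normal liver. Genes this low in normal liver could pass the filter on low counts only through the tumours. The median of the list and its share of higher genes are therefore no test. The proliferation antigen Mki67 did not pass, with 5.31 to 18.1 CPM in Grow (median 10.5) and 1.77, 0, 1.8 and 21.3 CPM in Regress, against 0.702, 0, 1.2 and 0.145 CPM in Normal (3.94 ± 1.11, adjusted p = 0.0722).

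Of 25 tested genes of DNA replication and nucleotide supply, 1 was called higher, against 1.59% of all features, and the median was 0.58. Of the 25, 21 had a log2 fold change above 0, and 8 were higher and 2 lower at an unadjusted p under 0.05. Over all features, 9.98% were higher and 8.01% lower at that threshold. The called gene was Rrm2, a subunit of the enzyme that makes deoxyribonucleotides, at 6.04 to 13.6 CPM (median 9.67) in Grow and 3.15, 3.36, 9.01 and 14.8 CPM in Regress, against 2.63, 2.1, 1.49 and 2.62 CPM in Normal (1.95 ± 0.44, adjusted p = 0.0394). The helicase subunit Mcm2 (1.50 ± 0.44, adjusted p = 0.0798) and the clamp Pcna (0.10 ± 0.28, adjusted p = 0.936) did not pass. Pcna stood at 17.2 to 46.9 CPM in Grow (median 30.3) and 43.7, 28.7, 31.9 and 21.9 CPM in Regress, against 35.1, 37.1, 17.9 and 28.4 CPM in Normal, and the groups overlapped. The count of mitosis genes was 0, 1, 0 and 0 without Normal 1 to 4, 8, 9, 4 and 4 without Grow 1, 4, 5 and 6, 5 without Regress 3 and 27 without Regress 1. With Grow 3 and 4 summed it was 8. Counts of replication genes called higher were 4 without Regress 1 and 0 without any 1 normal liver, without Grow 1, 5 or 6, or without Regress 3.

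Promoters of these lists held different shares of the short elements known from cell cycle genes, so 4 are shown, 180 bases each from 150 before to 30 after the RefSeq start (GRCm38.p6, read 5′ to 3′ on the gene's strand). Capitals mark the elements searched on both strands: TTTGAA (the cell cycle homology region), CCAAT (the NF-Y box), and TTTGGCGC or TTTCCCGC (E2F elements, 2 forms).
Cdk1, chr10:69352883-69353062, minus strand: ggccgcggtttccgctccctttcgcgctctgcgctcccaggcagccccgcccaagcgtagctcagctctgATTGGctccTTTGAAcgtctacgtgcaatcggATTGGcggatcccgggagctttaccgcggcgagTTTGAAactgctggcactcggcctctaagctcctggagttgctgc
Ccnb2, chr9:70421525-70421704, minus strand: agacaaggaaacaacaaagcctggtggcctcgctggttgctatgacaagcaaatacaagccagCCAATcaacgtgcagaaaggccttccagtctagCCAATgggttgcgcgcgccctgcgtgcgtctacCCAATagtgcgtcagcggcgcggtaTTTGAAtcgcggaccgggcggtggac
Mcm6, chr1:128359676-128359855, minus strand: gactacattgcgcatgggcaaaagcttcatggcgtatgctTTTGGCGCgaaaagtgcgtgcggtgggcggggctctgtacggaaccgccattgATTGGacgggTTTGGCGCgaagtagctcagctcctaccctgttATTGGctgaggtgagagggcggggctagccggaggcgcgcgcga
Mcm3, chr1:20820283-20820462, minus strand: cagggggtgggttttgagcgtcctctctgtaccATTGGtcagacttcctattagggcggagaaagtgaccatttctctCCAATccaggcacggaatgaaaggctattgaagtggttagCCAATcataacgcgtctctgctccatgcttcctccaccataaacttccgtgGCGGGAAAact

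Over a window from 250 bases before to 50 after the start, TTTGAA was present in 20 of 27 mitosis promoters in the table (74.1%), in 2 of 20 replication promoters (10%) in 20.2% of 27025 genes and in 14.4% of 9214 tested genes. Of the 14 called mitosis genes with a window, 11 (78.6%) had it. TTTGAA together with CCAAT was present in 18 of 27 mitosis promoters (66.7%), against 7.97% of all and 5.81% of tested genes. An E2F element of either form was present in 8 of 20 replication promoters (40%) in 1.8% of all genes, in 3.35% of tested genes and in none of the 27 mitosis promoters. No element contains another, and a match describes the sequence and does not show that a factor binds. Cdk1 and Ccnb2 passed the test, whereas Mcm6 (0.97 ± 0.43, adjusted p = 0.242) and Mcm3 (0.74 ± 0.32, adjusted p = 0.235) did not.

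Some inhibitors of cyclin-dependent kinases rose as well. Of 7 tested, Cdkn2c and Cdkn1a rose, against 1.59% of all features, and the median was 2.80. Cdkn2c, which blocks Cdk4 and Cdk6, stood at 5.73 to 11.6 CPM (median 10.1) in Grow and 3.15, 20.4, 14.4 and 9.45 CPM in Regress, against 0.527, 1.05, 1.05 and 2.33 CPM in Normal (3.05 ± 0.49, adjusted p = 0.0191), without overlap. Cdkn1a, a p53 target that blocks several such kinases, stood at 16.9 to 55.8 CPM (median 20.7) in Grow and 4.93, 39.3, 35.3 and 74.1 CPM in Regress, against 4.21, 8.76, 3.88 and 1.89 CPM in Normal (2.80 ± 0.63, adjusted p = 0.0374), and Regress 1 lay within the normal range. Cdkn2a and Cdkn2b, neighbours that act on the Rb pathway, did not pass (3.38 ± 0.93, adjusted p = 0.0665, and 5.05 ± 1.26, adjusted p = 0.0504), yet all 10 tumours lay above the normal livers in both. Cdkn2b stood at 1.14 to 53.3 CPM in Grow (median 10.4) and 1.18, 29.9, 23.7 and 37.7 CPM in Regress, against 0.527, 1.05, 0 and 0.727 CPM in Normal. Regress 1 and Normal 2 held the same count of Cdkn2b, with 1 count at 0.197 and 0.175 CPM. The count of called inhibitors was 0, 1, 0 and 1 without Normal 1 to 4, 1 without Grow 5, Grow 6, Regress 2 or Regress 3, and 4 without Regress 1.

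**Figure D2:**
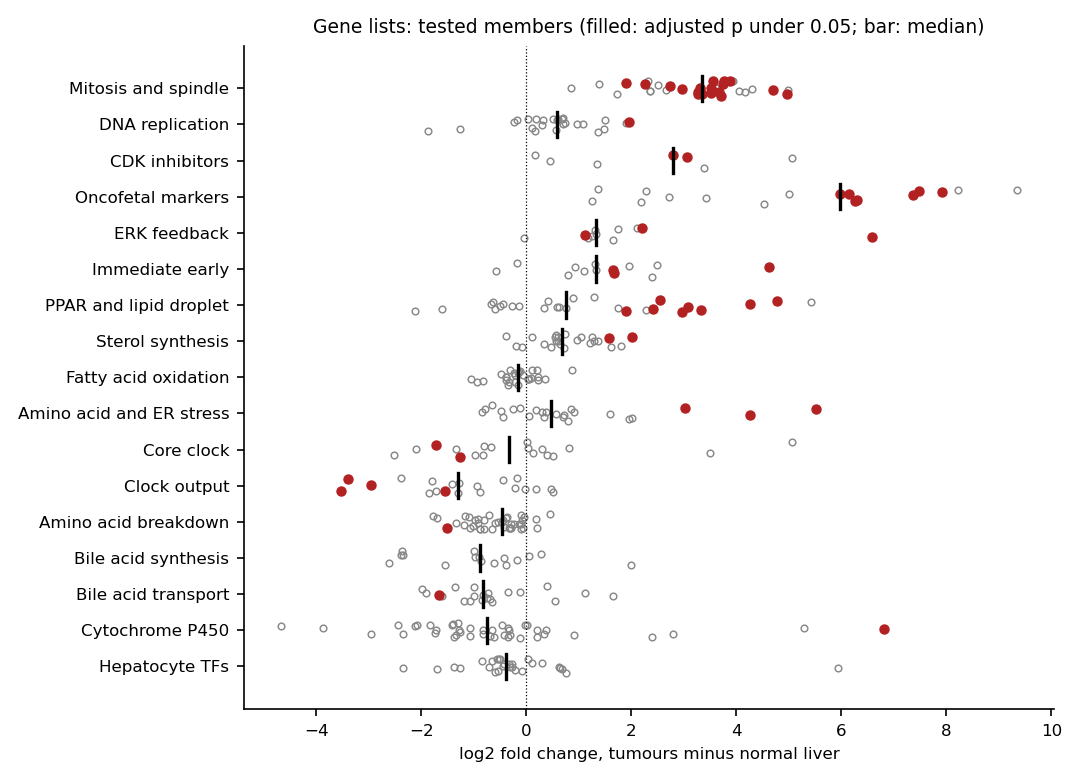
Log2 fold change, tumours minus normal liver, of the tested members of 17 gene lists. Filled red points passed an adjusted p under 0.05, open points did not, and the black bar is the list's median, which was 3.35 for mitosis, 0.58 for DNA replication and -1.30 for clock output.

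Of 17 tested fetal liver and liver tumour markers, 7 rose and none fell, against 1.59% and 0.732% of all features. Their median log2 fold change was 5.97, over the 17 tested of 22 listed genes. Genes near 0 in normal liver could pass the filter on low counts only through the tumours. The list was also chosen with earlier results of these data known, so the size of this median is no test. Of these 7, Ly6d and Tff3 were above every normal liver in all 10 tumours, and the other 5 in 9. Over all features, 1.09% were above in all 10. Ly6d, a surface protein with a lipid anchor, stood at 9.44 to 290 CPM (median 47.9) in Grow and 1.77, 115, 54.3 and 146 CPM in Regress, against 0.351, 0.876, 0.299 and 0.436 CPM in Normal (7.37 ± 1.33, adjusted p = 0.0221). Tff3, a secreted trefoil peptide of mucous epithelia, stood at 94 to 434 CPM (median 177) in Grow and 30.3, 971, 1299 and 77.6 CPM in Regress, against 6.67, 0.35, 1.49 and 11.8 CPM in Normal (6.15 ± 1.24, adjusted p = 0.0290). Regress 1 was the lowest tumour for both.

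For the fetal plasma protein Afp, Grow stood at 23.2 to 306 CPM (median 76) and Regress at 0.591, 222, 62.8 and 430 CPM, against 1.4, 0.876, 0.299 and 4.51 CPM in Normal (6.29 ± 1.36, adjusted p = 0.0328). The cell surface proteoglycan Gpc3 stood at 10.7 to 291 CPM (median 58.2) in Grow and 0.197, 48.6, 48.4 and 295 CPM in Regress, against 1.93, 0.876, 1.64 and 1.02 CPM in Normal (6.26 ± 1.51, adjusted p = 0.0457). Akr1c18, a steroid reductase of a family whose close copies make its counts uncertain, had 0 CPM in Regress 1 and 60.7 to 309 CPM in the other tumours, against 1.4, 0, 0.299 and 0.873 CPM in Normal (7.91 ± 1.46, adjusted p = 0.0236). All 3 were thus within or below the normal range in Regress 1 and above it in the other 9 tumours. The counts of called markers were 0 without any 1 normal liver, 4, 3 and 3 without Grow 1, 5 and 6, 4 without Regress 2 or Regress 4, and 11 without Regress 1.

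Some genes that ERK signalling switches on rose, and no gene encoding the pathway itself was called. Of 11 tested feedback genes, 3 rose and none fell (median 1.33), against 1.59% and 0.732% of all features. Dusp6, the phosphatase that removes phosphate from ERK and is itself induced by it, stood at 75.2 to 132 CPM (median 89.5) in Grow and 37.4, 112, 74.2 and 123 CPM in Regress, against 22.3, 20.1, 18.1 and 18.3 CPM in Normal (2.20 ± 0.30, adjusted p = 0.0109), with no overlap. Spred1, which restrains Ras, stood at 12.9 to 27.3 CPM (median 16.9) in Grow and 11.4, 12.3, 13.9 and 22.6 CPM in Regress, against 8.95, 7.36, 7.92 and 5.96 CPM in Normal (1.12 ± 0.26, adjusted p = 0.0397), again with no overlap. The nuclear ERK phosphatase Dusp5 had 415 counts in all tumours and 1 in all normal livers, a ratio of 144 in CPM with an exact 95% interval of 25.8 to 5715 for counting error only (adjusted p = 0.0465). It was at 0 in Regress 1. None of 19 genes of Ras, Raf, Mek and Erk (median 0.02) and none of 18 receptor kinases (median -0.03) was called. At an unadjusted p under 0.05 there were 2 and 3 of them, against 18% of all features. With 1 library left out, the feedback count was 1, 1, 0 and 1 without Normal 1 to 4 and 1 without Grow 5, Grow 6 or Regress 3.

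Of 13 tested immediate early genes, 3 rose (median 1.32), against 1.59% of all features called higher. Such genes respond within minutes to growth signals and also to tissue handling. The transcription factor Egr1 stood at 11 to 210 CPM (median 61.7) in Grow and 26, 48.6, 33 and 90.4 CPM in Regress, against 3.16, 0.35, 1.49 and 5.09 CPM in Normal (4.63 ± 0.94, adjusted p = 0.0290). Grow 3 was the lowest tumour and lay 1.07 above Normal 4 on the log2 scale. Klf6, also a transcription factor, stood at 22.9 to 51.2 CPM (median 41.7) in Grow and 26.6, 85.6, 47.6 and 24.8 CPM in Regress, against 14.9, 18.6, 8.82 and 11.3 CPM in Normal (1.65 ± 0.37, adjusted p = 0.0370), without overlap. Jun, a subunit of AP-1, overlapped the normal livers in Regress 1 and 3 (1.66 ± 0.39, adjusted p = 0.0408). Its partner Fos did not pass (2.40 ± 0.68, adjusted p = 0.0723). The count was 0 without any 1 normal liver, 1 without Grow 5 or Grow 6, and 9 without Regress 1. The time from death to freezing is not given, and its part in these genes was not tested.

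Several genes of lipid uptake and storage rose. Of 27 tested PPAR-responsive and lipid droplet genes, 8 rose and none fell (median 0.75), and 5 of the 8 lay above every normal liver in all 10 tumours. Over all features, 1.59% were called higher and 1.09% lay above in this way. Among the genes of uptake, the fatty acid transporter Cd36 stood at 71.3 to 168 CPM (median 110) in Grow and 45.3, 97.1, 139 and 77.2 CPM in Regress, against 13.9, 30.1, 7.47 and 17.3 CPM in Normal (2.55 ± 0.41, adjusted p = 0.0173), without overlap. The lipoprotein lipase Lpl stood at 205 to 521 CPM (median 234) in Grow and 23.4, 103, 241 and 409 CPM in Regress, against 42.5, 19.1, 20.3 and 10.8 CPM in Normal (3.32 ± 0.66, adjusted p = 0.0290), with Regress 1 inside the normal range. The fatty acid binding protein Fabp4 (3.08 ± 0.61, adjusted p = 0.0290) had no overlap. Among droplet genes, the coat protein Plin2 stood at 228 to 859 CPM (median 565) in Grow and 228, 717, 637 and 559 CPM in Regress, against 120, 93.4, 152 and 206 CPM in Normal (1.90 ± 0.44, adjusted p = 0.0403), without overlap. Cidec, which fuses droplets, stood at 5.42 to 12.2 CPM (median 6.61) in Grow and 0.394, 17.8, 5.67 and 6.77 CPM in Regress, against 0, 0, 0 and 1.45 CPM in Normal (4.25 ± 1.00, adjusted p = 0.0417).

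The other called members were the liver hormone Fgf21 (2.42 ± 0.53, adjusted p = 0.0348), Vnn1, a pantetheinase (4.78 ± 0.86, adjusted p = 0.0221), and Pdk4, a kinase that keeps pyruvate from being oxidised. Pdk4 stood at 3.81 to 27.6 CPM (median 16.8) in Grow and 10.4, 7.51, 7.98 and 31.9 CPM in Regress, against 1.58, 2.98, 1.34 and 2.04 CPM in Normal (2.97 ± 0.60, adjusted p = 0.0290). The receptor Ppara did not pass (-0.67 ± 0.34, adjusted p = 0.337). None of 28 fatty acid oxidation genes was called (median -0.16), with 5 at an unadjusted p under 0.05, against 18% of all features. Fabp4 and Cidec are also fat cell markers. The 8 measured adipocyte markers summed to 106 to 1192 CPM in Grow and 243 to 1815 CPM in Regress, against 481 to 3118 CPM in Normal. Their mean log2 (CPM + 1) gave the other order, with overlap. It was 1.81 to 2.41 in Grow and 1.81 to 3.27 in Regress, against 1.38 to 1.90 in Normal. Of 3 tested adipocyte markers, Fabp4 and Cidec were the 2 called. The part of fat cells in these genes was not tested. The count of 8 was 0, 1, 0 and 0 without Normal 1 to 4, 5 without Regress 3 and 11 without Regress 1.

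Of 24 sterol synthesis genes, 2 rose and 11 were higher at an unadjusted p under 0.05, against 9.98% of all features. Their median was 0.67. Hmgcs1, which makes the HMG-CoA that the pathway starts from, stood at 132 to 289 CPM (median 249) in Grow and 171, 166, 159 and 466 CPM in Regress, against 33.9, 24, 50.2 and 128 CPM in Normal (2.01 ± 0.47, adjusted p = 0.0403). The nearest tumour and normal liver, Grow 6 and Normal 4, were 0.04 apart on the log2 scale. Mvd, a later enzyme of the same pathway, rose by 1.58 ± 0.34 (adjusted p = 0.0328). Of 26 fatty acid and triglyceride synthesis genes, the elongase Elovl7 rose and Dgat2, which completes triglyceride, fell. Elovl7 stood at 1.39 to 32.7 CPM (median 12.9) in Grow and 0.394, 5.73, 6.44 and 20.9 CPM in Regress, against 0, 0, 0.299 and 0.291 CPM in Normal (6.04 ± 1.23, adjusted p = 0.0290). Dgat2 stood at 163 to 267 CPM (median 191) in Grow and 148, 251, 209 and 167 CPM in Regress, against 322, 284, 478 and 486 CPM in Normal (-0.98 ± 0.23, adjusted p = 0.0397). Dgat2 did not overlap between tumours and normal livers. Elovl7 did not either in CPM, but 1 count is 0.197 CPM in Regress 1 and 0.149 CPM in Normal 3. These 2 libraries thus held the same count of Elovl7, and their gap comes from library size. The sterol count was 0 without Normal 1, 2 or 3 or Grow 5, 1 without Normal 4, Grow 1, 3, 4 or 6 or Regress 2 or 3, and 5 without Regress 1.

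Of 24 tested genes of the unfolded protein and amino acid stress responses, Psat1, Phgdh and Nupr1 rose, and the median was 0.47. Over all features, 1.59% were called higher. Phgdh, the first enzyme of serine synthesis, stood at 3.79 to 33.1 CPM (median 4.88) in Grow and 0.394, 41.5, 26.3 and 42 CPM in Regress, against 0.527, 0.175, 0.299 and 0.436 CPM in Normal (5.52 ± 1.13, adjusted p = 0.0291). Psat1, the second enzyme, stood at 4.33 to 27.5 CPM (median 13.2) in Grow and 1.97, 7.91, 5.67 and 15 CPM in Regress, against 0.702, 0.701, 0.299 and 0.436 CPM in Normal (4.25 ± 0.73, adjusted p = 0.0213). Phgdh overlapped the normal livers in Regress 1 only, and Psat1 in no tumour. Psph, the last enzyme of serine synthesis and no member of the list, did not pass (1.92 ± 0.56, adjusted p = 0.0762). The stress-induced chromatin protein Nupr1 stood at 3.72 to 24.1 CPM (median 5.23) in Grow and 2.17, 9.09, 2.32 and 3.81 CPM in Regress, against 1.05, 0.876, 1.05 and 0.291 CPM in Normal (3.03 ± 0.70, adjusted p = 0.0397), without overlap. The chaperones of the list Hspa5 (0.34 ± 0.27, adjusted p = 0.615) and Hsp90b1 (-0.65 ± 0.29, adjusted p = 0.258) did not pass. The count was 0, 1, 0 and 0 without Normal 1 to 4 and 5 without Regress 1.

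Of 22 promoters of this list, 3 (13.6%) held TGATGCAA on either strand, the element known to bind ATF4 with a C/EBP protein, against 1.03% of all and 0.749% of tested genes. The promoter of Nupr1 is shown because it holds that element in a called gene, in capitals and here on the opposite strand as TTGCATCA (GRCm38.p6, same window).
Nupr1, chr7:126625441-126625620, minus strand: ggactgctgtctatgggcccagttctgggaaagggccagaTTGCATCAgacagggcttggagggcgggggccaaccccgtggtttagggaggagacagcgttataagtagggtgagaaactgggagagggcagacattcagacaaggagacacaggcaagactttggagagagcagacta

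Several genes driven by the daily clock fell. Of 20 tested genes with a daily rhythm downstream of the clock, 4 fell and none rose (median -1.30), and 10 were lower at an unadjusted p under 0.05, against 8.01% of all features. Over all features, 0.732% were called lower. All 4 called genes lay below every normal liver in all 10 tumours, as did 0.935% of all features. The nearest tumour and normal liver were only 0.01 apart on the log2 scale for Noct and 0.12 apart for Upp2. Usp2, a deubiquitinase, stood at 0.457 to 6.44 CPM (median 2.25) in Grow and 0.197, 6.92, 0.258 and 1.55 CPM in Regress, against 18.4, 10.5, 43.6 and 49.5 CPM in Normal (-3.53 ± 0.71, adjusted p = 0.0290). Upp2, a uridine phosphorylase, stood at 3.52 to 40.2 CPM (median 21) in Grow and 299, 154, 61.3 and 0.846 CPM in Regress, against 534, 533, 326 and 845 CPM in Normal (-3.40 ± 0.81, adjusted p = 0.0434). Noct, which removes phosphate from NADPH, stood at 0.553 to 7.33 CPM (median 3.5) in Grow and 0.197, 4.94, 0.773 and 1.98 CPM in Regress, against 21.8, 7.36, 22.4 and 32 CPM in Normal (-2.96 ± 0.59, adjusted p = 0.0290). The transcription factor Hlf stood at 18.2 to 27.2 CPM (median 19.9) in Grow and 19.9, 21.7, 14.4 and 13 CPM in Regress, against 36, 32.6, 77.4 and 77.4 CPM in Normal (-1.56 ± 0.24, adjusted p = 0.0168).

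Of 18 core clock genes, 2 fell, the repressors Per2 and Cry2, against 0.732% of all features called lower. Per2 stood at 6.64 to 25 CPM (median 9.08) in Grow and 3.74, 13.2, 3.09 and 2.54 CPM in Regress, against 17.9, 34.5, 33.5 and 20.2 CPM in Normal (-1.73 ± 0.42, adjusted p = 0.0460). Cry2 fell by 1.26 on the log2 scale (SE 0.28, adjusted p = 0.0356). The activators Arntl and Npas2 did not pass (3.50 ± 0.89, adjusted p = 0.0539, and 5.05 ± 1.32, adjusted p = 0.0586). Arntl stood at 3.91 to 24.1 CPM (median 13.6) in Grow and 15, 0.395, 6.44 and 27.8 CPM in Regress, against 1.23, 0.526, 2.39 and 0.436 CPM in Normal. The output factor Dbp stood at 2.06 to 48.6 CPM (median 12) in Grow and 2.96, 166, 15.5 and 1.98 CPM in Regress, against 65.3, 59.6, 108 and 132 CPM in Normal (-1.72 ± 0.90, adjusted p = 0.346). Of the tumours, 9 lay above the normal livers for Arntl and below them for Dbp, Regress 1 among them. Regress 2 lay on the opposite side of the normal range in both genes. The time of day of collection is not given in the labels, and its part in these genes was not tested.

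The output count was 1, 3, 0 and 0 without Normal 1 to 4 and 2 without Regress 3. The core clock count was 0 without any 1 normal liver, without Grow 5 or 6 or without Regress 3, and 1 without Grow 1, 2 or 4. Without Grow 3 core clock genes gave 2 rises and 1 fall, without Regress 1 they gave 2 rises and 3 falls, and without Regress 2 they gave 1 rise and 4 falls.

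**Figure D3:**
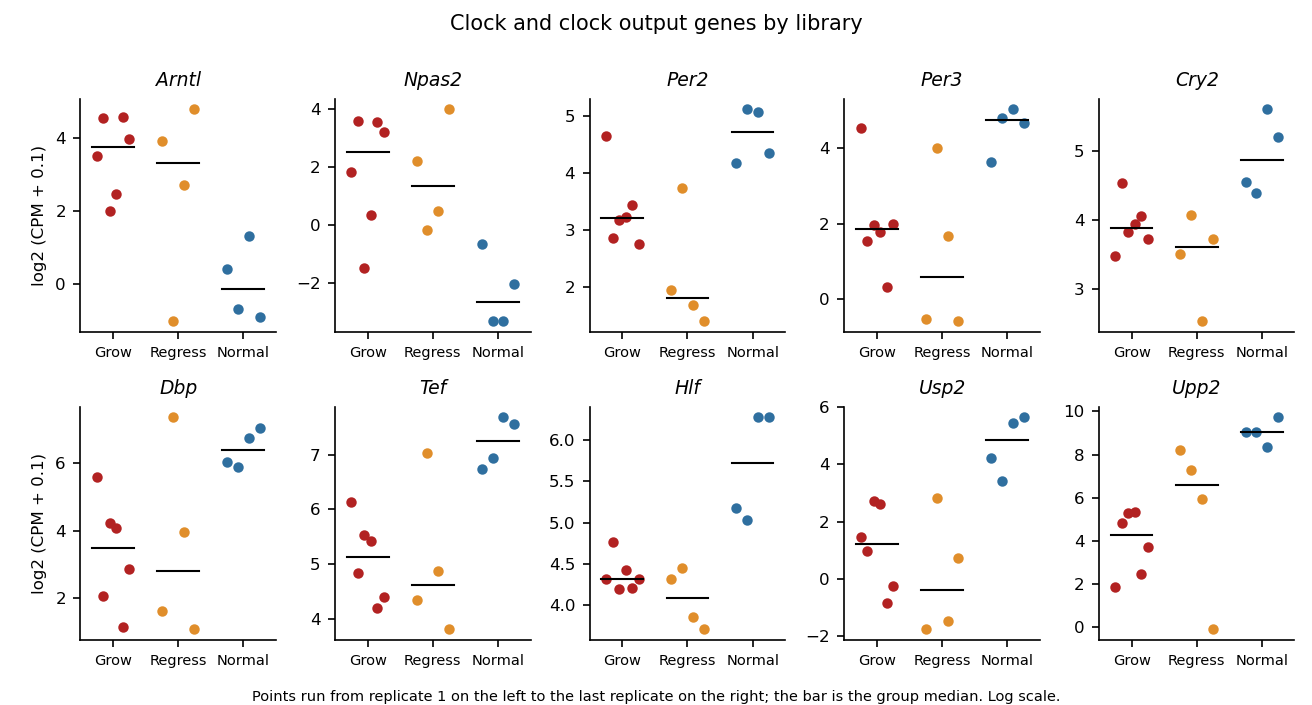
Level of 10 clock and clock output genes, log2 (CPM + 0.1), in Grow, Regress and Normal libraries, 1 point per library and a bar at the group median. Regress 2, the second Regress point, lies apart from the other tumours in Arntl (0.395 CPM) and Dbp (166 CPM).

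Other genes that fell in every tumour have varied roles. Bmf, which promotes cell death by binding BCL2 proteins, stood at 0.757 to 4.8 CPM (median 1.79) in Grow and 4.53, 4.15, 2.32 and 4.23 CPM in Regress, against 23.2, 7.88, 23.9 and 23.3 CPM in Normal (-2.76 ± 0.41, adjusted p = 0.0120). Of 17 BCL2 family genes, Bmf fell and Bok, a relative of Bax, rose (1.34 ± 0.29, adjusted p = 0.0328). At an unadjusted p under 0.05, 3 of the 17 were higher and 1 lower (median 0.24). Over all features, 9.98% were higher and 8.01% lower at that threshold, and 2.32% were called. The potassium channel Kcnk5 stood at 3.14 to 14 CPM (median 12) in Grow and 6.5, 8.3, 10 and 7.48 CPM in Regress, against 47, 20.1, 49.3 and 62 CPM in Normal (-2.29 ± 0.33, adjusted p = 0.0109). The scaffold protein Homer2 stood at 5.9 to 12.9 CPM (median 8.72) in Grow and 17.1, 9.09, 9.53 and 2.26 CPM in Regress, against 39.3, 45.2, 43.3 and 48.2 CPM in Normal (-2.27 ± 0.33, adjusted p = 0.0120), a gap of 1.18 on the log2 scale between Regress 1 and Normal 1. None of these 3 falls overlapped the normal livers.

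The remaining largest falls were the G protein subunit Gna14 (-2.91 ± 0.71, adjusted p = 0.0481), the actin regulator Cyfip2 (-2.80 ± 0.54, adjusted p = 0.0290), the metalloreductase Steap2 (-2.53 ± 0.46, adjusted p = 0.0221) and the collagen prolyl hydroxylase P4ha2 (-2.12 ± 0.40, adjusted p = 0.0238). The pseudogene Marcksl1-ps4 (-2.29 ± 0.49, adjusted p = 0.0328) shares sequence with Marcksl1, so its counts are uncertain. For Cyfip2 the nearest libraries, Grow 2 at 6.97 CPM and Normal 4 at 7.56 CPM, were 0.11 apart on the log2 scale.

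The rule, which asked for no overlap with the normal livers, named 4 further rises. The metalloprotease Mep1b stood at 4.03 to 10.8 CPM (median 8.9) in Grow and 1.38, 13, 97.3 and 18.1 CPM in Regress, against 1.05, 0.526, 0.149 and 0.436 CPM in Normal (4.91 ± 0.96, adjusted p = 0.0290). Wfdc15b, a secreted protein with a protease inhibitor fold, stood at 5.07 to 126 CPM (median 23.9) in Grow and 9.85, 171, 92.4 and 16.6 CPM in Regress, against 1.93, 3.85, 1.05 and 3.2 CPM in Normal (4.54 ± 1.12, adjusted p = 0.0493). The epithelial transcription factor Elf3 had low levels, at 1.32 to 16.1 CPM (median 2.99) in Grow and 0.591, 5.73, 5.15 and 3.24 CPM in Regress, against 0.527, 0.175, 0.299 and 0 CPM in Normal (4.06 ± 0.94, adjusted p = 0.0397). Regress 1 and Normal 1 both held 3 counts of Elf3, so their gap comes from library size. Regress 3 was the highest tumour for Mep1b and Regress 2 for Wfdc15b. Slc22a29, of a transporter family with close copies and so uncertain, rose by 4.13 ± 1.00 (adjusted p = 0.0459).

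Lists of glucose use, stress and repair held few calls. Over all features, 9.98% were higher and 8.01% lower at an unadjusted p under 0.05, and 2.32% were called. Of 17 gluconeogenesis and glycogen genes (median -0.54), 2 rose while 8 were lower at an unadjusted p under 0.05. The 2 were Gyg, the protein primer of glycogen, and Pck2, the mitochondrial enzyme that makes phosphoenolpyruvate. Gyg stood at 8.51 to 16.9 CPM (median 12.2) in Grow and 7.29, 12.3, 11.8 and 12.1 CPM in Regress, against 3.86, 4.91, 5.08 and 6.55 CPM in Normal (1.19 ± 0.25, adjusted p = 0.0320). Pck2 stood at 6.56 to 14.4 CPM (median 9.9) in Grow and 1.77, 23.9, 14.2 and 24 CPM in Regress, against 3.51, 2.1, 2.84 and 2.04 CPM in Normal (2.27 ± 0.51, adjusted p = 0.0384). Gyg had no overlap, and Pck2 was below every normal liver in Regress 1 alone. Of 22 p53 targets (median 0.21), Cdkn1a and the growth inhibitor Btg2 (3.12 ± 0.70, adjusted p = 0.0366) rose, and of 18 NRF2 targets (median 0.05) the sulfiredoxin Srxn1 rose (1.26 ± 0.30, adjusted p = 0.0453). None was called of 27 glucose uptake and glycolysis genes (median 0.16, with 5 higher and 2 lower at an unadjusted p under 0.05), 37 conjugating enzymes (-0.10, with 4 and 9), 20 iron genes (-0.31, with 1 and 8) or 37 antigen presentation and interferon genes (0.40, with 7 and 1). The same held for 16 histone deacetylases, the class that SAHA inhibits (median 0.03, with 2 and 1), and 16 genes that repair alkylated or mismatched DNA (median 0.01, with 2 and 2).

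**Figure D4:**
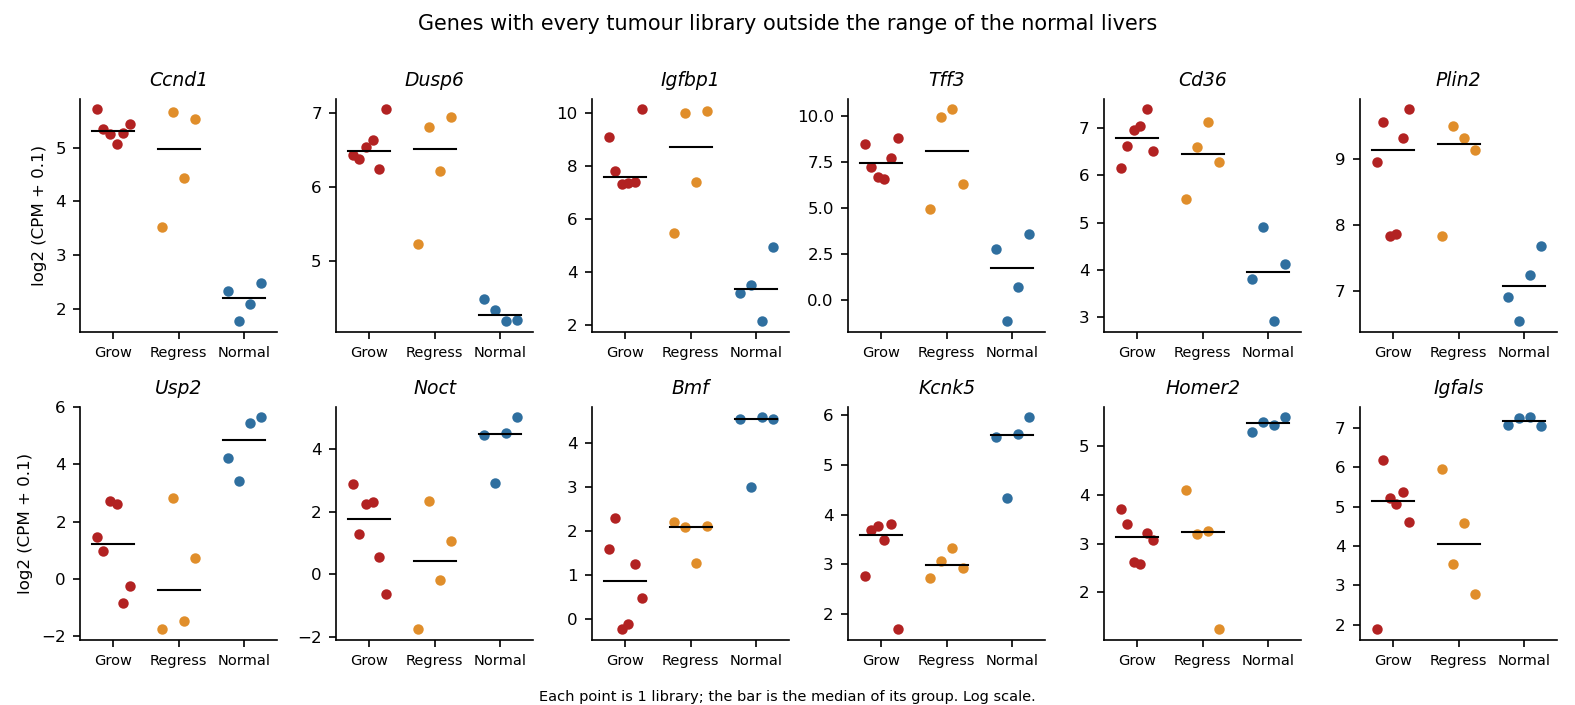
Level of 6 genes above (upper row) and 6 below (lower row) the range of the normal livers in every tumour, log2 (CPM + 0.1), with 1 point per library and a bar at the group median. The lowest Regress point of Ccnd1, Dusp6, Igfbp1, Tff3 and Cd36 is Regress 1, at 11.4, 37.4, 44.7, 30.3 and 45.3 CPM. For Noct the nearest libraries, Grow 1 at 7.33 CPM and Normal 2 at 7.36 CPM, are 0.01 apart on the log2 scale.

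In the growth hormone and IGF axis, 1 of 19 tested genes rose and 1 fell (median -0.07). At an unadjusted p under 0.05, 2 were higher and 3 lower. Over all features, 9.98% were higher and 8.01% lower at that threshold, and 2.32% were called. Igfals, the liver protein that holds IGF in a large complex in blood, stood at 3.59 to 72.6 CPM (median 35.5) in Grow and 61.9, 11.5, 23.9 and 6.77 CPM in Regress, against 136, 154, 155 and 134 CPM in Normal (-2.25 ± 0.55, adjusted p = 0.0465). Igfbp1, a binding protein that insulin represses in liver, stood at 161 to 1130 CPM (median 194) in Grow and 44.7, 1034, 169 and 1081 CPM in Regress, against 9.13, 11.4, 4.33 and 30.5 CPM in Normal (5.12 ± 1.04, adjusted p = 0.0290). Both were outside the normal range in all 10 tumours. Igf1 lay below the normal livers in all 10 as well, at 126 to 390 CPM (median 229) in Grow and 487, 215, 285 and 62.5 CPM in Regress, against 559, 785, 672 and 564 CPM in Normal, but did not pass (-1.36 ± 0.39, adjusted p = 0.0761). The receptor Ghr did not pass either (-1.18 ± 0.40, adjusted p = 0.120).

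Among genes that growth hormone pulses make sex-biased in mouse liver, 3 of 14 female-biased genes rose and 0 of 20 male-biased genes was called (8 of these lower at an unadjusted p under 0.05, median -1.39). Over all features, 8.01% were lower and 9.98% higher at that unadjusted threshold, and 1.59% were called higher. The called genes were the peroxisomal transporter Abcd2, the cytochrome P450 gene Cyp2b13 and the membrane protein Prom1. Abcd2 stood at 22.2 to 172 CPM (median 133) in Grow and 42.6, 202, 162 and 113 CPM in Regress, against 3.86, 17.9, 0.598 and 7.71 CPM in Normal (3.96 ± 0.86, adjusted p = 0.0342), without overlap. Cyp2b13, one of a family of close copies and so uncertain, had 0 CPM in Regress 1 and 3.61 to 82.3 CPM in the other tumours, against 0, 0.35, 0 and 0.291 CPM in Normal (6.82 ± 1.24, adjusted p = 0.0221). Normal 2 stood apart from the other normal livers here. Its 20 measured female-biased genes summed to 1670 CPM, against 31.7 to 109 CPM in the other 3, and its 22 male-biased genes to 6581 CPM, against 18866 to 67412 CPM. In tumours the female-biased sum was 454 to 3573 CPM in Grow and 91.2 to 6954 CPM in Regress, and the male-biased sum was 4568 to 13560 CPM in Grow and 6572 to 68071 CPM in Regress, which overlap Normal. Of the male-biased genes 5 were called lower without Regress 1 (median -2.35) and 3 with drug-free tumours alone (median -3.28). The drug-free tumours are those given DMSO or buffer, Grow 1 and 5 and Regress 2 and 4. The female-biased list did not move one way: its folds ran from -6.07 to 6.82, with 8 members higher and 3 lower at an unadjusted p under 0.05. Its count was 0 without any 1 normal liver and 1 without Grow 1, Grow 5, Grow 6, Regress 2 or Regress 3.

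Lists of hepatocyte function had medians below 0, and few of their genes passed. Over all features, 8.01% were lower and 9.98% higher at an unadjusted p under 0.05, and 0.732% were called lower and 1.59% higher. Of 41 amino acid breakdown enzymes, 38 had a log2 fold change below 0 (median -0.46), 15 were lower and 0 higher at an unadjusted p under 0.05, and 1 fell. It was Tat, which opens tyrosine breakdown, at 269 to 672 CPM (median 429) in Grow and 261, 635, 371 and 153 CPM in Regress, against 1455, 591, 1158 and 1304 CPM in Normal (-1.52 ± 0.36, adjusted p = 0.0408), with Grow 5 and Regress 2 inside the normal range set by Normal 2. Of 12 urea cycle and ammonia genes, 11 were below 0 (median -0.61) and Asl, which makes arginine, fell. Asl stood at 76.3 to 136 CPM (median 117) in Grow and 245, 267, 207 and 81.5 CPM in Regress, against 459, 395, 313 and 470 CPM in Normal (-1.43 ± 0.27, adjusted p = 0.0238), without overlap. Of 21 bile acid and organic anion transporters (median -0.82), the bile acid importer Slc10a1 fell, at 92.3 to 318 CPM (median 155) in Grow and 296, 159, 268 and 101 CPM in Regress, against 465, 306, 676 and 969 CPM in Normal (-1.66 ± 0.37, adjusted p = 0.0369). Grow 2 alone lay inside the normal range.

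Of 16 bile acid synthesis enzymes none was called, and 8 were lower and 1 higher at an unadjusted p under 0.05 (median -0.88). Of 42 cytochrome P450 genes, 16 were lower and 4 higher at an unadjusted p under 0.05 (median -0.76), and Cyp2b13 was the 1 called. Over all features these shares were 8.01% and 9.98%, and the 4 higher are near the latter. None of 28 hepatocyte transcription factors (median -0.38, 10 at an unadjusted p under 0.05), 36 complement and coagulation genes (median -0.39, 6) or 38 respiratory chain genes (median -0.20, 1) was called. Hnf4a, which maintains hepatocyte identity, did not pass (-0.27 ± 0.28, adjusted p = 0.724). Of 29 plasma protein genes 1 rose, the apolipoprotein Apoa4. It stood at 1221 to 11698 CPM (median 7313) in Grow and 369, 30969, 10258 and 5146 CPM in Regress, against 362, 205, 118 and 612 CPM in Normal (4.72 ± 1.09, adjusted p = 0.0397), with Regress 1 inside the normal range. Of 26 acute phase genes 1 fell, Orm3 (-3.21 ± 0.72, adjusted p = 0.0375), at 2.21 CPM or less in Grow and 3.86 CPM or less in Regress, against 4.63 to 14.5 CPM in Normal.

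Counts of hepatocyte genes depended on the libraries used. Without Regress 1, 5 amino acid breakdown, 4 bile acid synthesis, 5 bile acid transport and 4 cytochrome P450 genes were called lower. With drug-free tumours alone these counts were 7, 7, 5 and 14, with a cytochrome P450 median of -1.81. Without Normal 1 or without Normal 3 none was called in any of these lists, with 11 and 14 amino acid breakdown genes lower at an unadjusted p under 0.05.

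Of the gene lists known to mark tumour classes, 0 of 20 beta-catenin targets (median 0.33, 2 at an unadjusted p under 0.05) and 0 of 8 imprinted genes (median 1.30, 3) were called. Over all features, 18% were at an unadjusted p under 0.05 and 2.32% were called. The beta-catenin target Glul, glutamine synthetase, differed widely among tumours. It stood at 9962, 9771 and 1519 CPM in Grow 3, Grow 4 and Regress 4 and at 22.7 to 238 CPM in the other 7 tumours, against 292, 225, 375 and 583 CPM in Normal (1.78 ± 1.53, adjusted p = 0.650). The median of the beta-catenin list changed sign with the libraries used, at -0.06 without Regress 4 and -0.70 with drug-free tumours alone, where 5 genes were called lower and 0 higher.

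Few markers of other cells of the liver passed the test with all libraries, where 1.59% of all features were called higher and 0.732% lower. Of 22 stellate cell and matrix genes 1 rose, Tagln (2.36 ± 0.54, adjusted p = 0.0397), and the summed level of the 25 measured was 625 to 2954 CPM in Grow and 810 to 5552 CPM in Regress, against 866 to 2551 CPM in Normal. Of 13 sinusoidal endothelial markers 1 rose, Lyve1 (3.09 ± 0.74, adjusted p = 0.0443), while 8 had a log2 fold change below 0 (median -0.10). Of 10 tested continuous endothelial markers 1 rose, Cd34 (3.49 ± 0.82, adjusted p = 0.0408), with 7 above 0 and 3 below (median 1.18). The 13 sinusoidal markers summed to 162 to 472 CPM in Grow and 263 to 302 CPM in Regress, against 246 to 359 CPM in Normal. The 14 measured continuous markers summed to 85.7 to 139 CPM in Grow and 90.9 to 128 CPM in Regress, against 99 to 128 CPM in Normal. Both sums overlapped between groups. Cd34 stood at 3.87 to 8.84 CPM (median 6.21) in Grow and 0.197, 16, 10 and 13.3 CPM in Regress, against 0.702, 1.05, 0 and 1.02 CPM in Normal. Of 13 ductular genes 2 rose, Tspan8 (5.97 ± 1.43, adjusted p = 0.0443) and Prom1 (4.86 ± 1.17, adjusted p = 0.0444). The 18 ductular markers summed to 576 to 1430 CPM in Grow and to 191, 1629, 1014 and 1578 CPM in Regress 1 to 4, against 251 to 420 CPM in Normal, so all tumours but Regress 1 were higher. Krt19, which defines bile duct cells, reached 34.8 CPM in Regress 3 and 3.66 CPM or less in the other tumours, against 0.299 to 1.05 CPM in Normal.

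None of 14 Kupffer cell markers was called (median -0.73, 6 lower at an unadjusted p under 0.05), and their sum was 199 to 789 CPM in Grow and 472 to 1224 CPM in Regress, against 684 to 1610 CPM in Normal. None of 17 recruited monocyte markers was called either (median 1.34, 8 higher at an unadjusted p under 0.05), with sums of 142 to 597 CPM in Grow and 377 to 1196 CPM in Regress, against 101 to 460 CPM in Normal. The sums overlapped between groups in both lists. Over all features, 8.01% were lower and 9.98% higher at an unadjusted p under 0.05. The 9 erythroid markers summed to 355 to 1323 CPM in Grow and 190 to 998 CPM in Regress, against 446 to 2302 CPM in Normal. Of 12 pancreatic acinar markers 8 stood at 0 in every library, and the sum was 23.8 to 251 CPM in Grow and 61.7 to 330 CPM in Regress, against 7.17 to 43.6 CPM in Normal. T and NK cell markers summed to 36.8 CPM or less in any library, B and plasma cell markers to 59.3 CPM or less and neutrophil markers to 72.1 CPM or less. Without Regress 1 more of these markers were called, with 9 stellate and matrix genes higher and 2 lower, 7 ductular genes higher, 3 continuous endothelial genes higher and 1 lower, and 2 monocyte genes higher. With drug-free tumours alone 8 stellate, 8 ductular and 4 monocyte genes were called higher, and 5 Kupffer cell and 2 stellate genes lower. Without Normal 1 or without Normal 3 none was called in these lists. The part of these cells in the tumour calls was not tested.

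Tumours marked Regress and Grow did not differ in these genes beyond the test's threshold. For Regress minus Grow edgeR called 0 of 12300 features (1230, or 10%, at an unadjusted p under 0.05, and DESeq2 called 31). Among the 285 tumour genes, 30 had an unadjusted p under 0.05 and the lowest adjusted p was 0.474. Without Regress 4, 1249 of 12520 features (9.98%) were called for this difference. Against the same normal livers, Grow alone gave 217 calls (1.76%) and Regress alone 3 (0.0244%), which does not show that they differ. Upp2 was lower than Normal by a log2 fold change of -2.12 in Regress and -4.69 in Grow (adjusted p of the difference = 0.474).

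**Figure D5:**
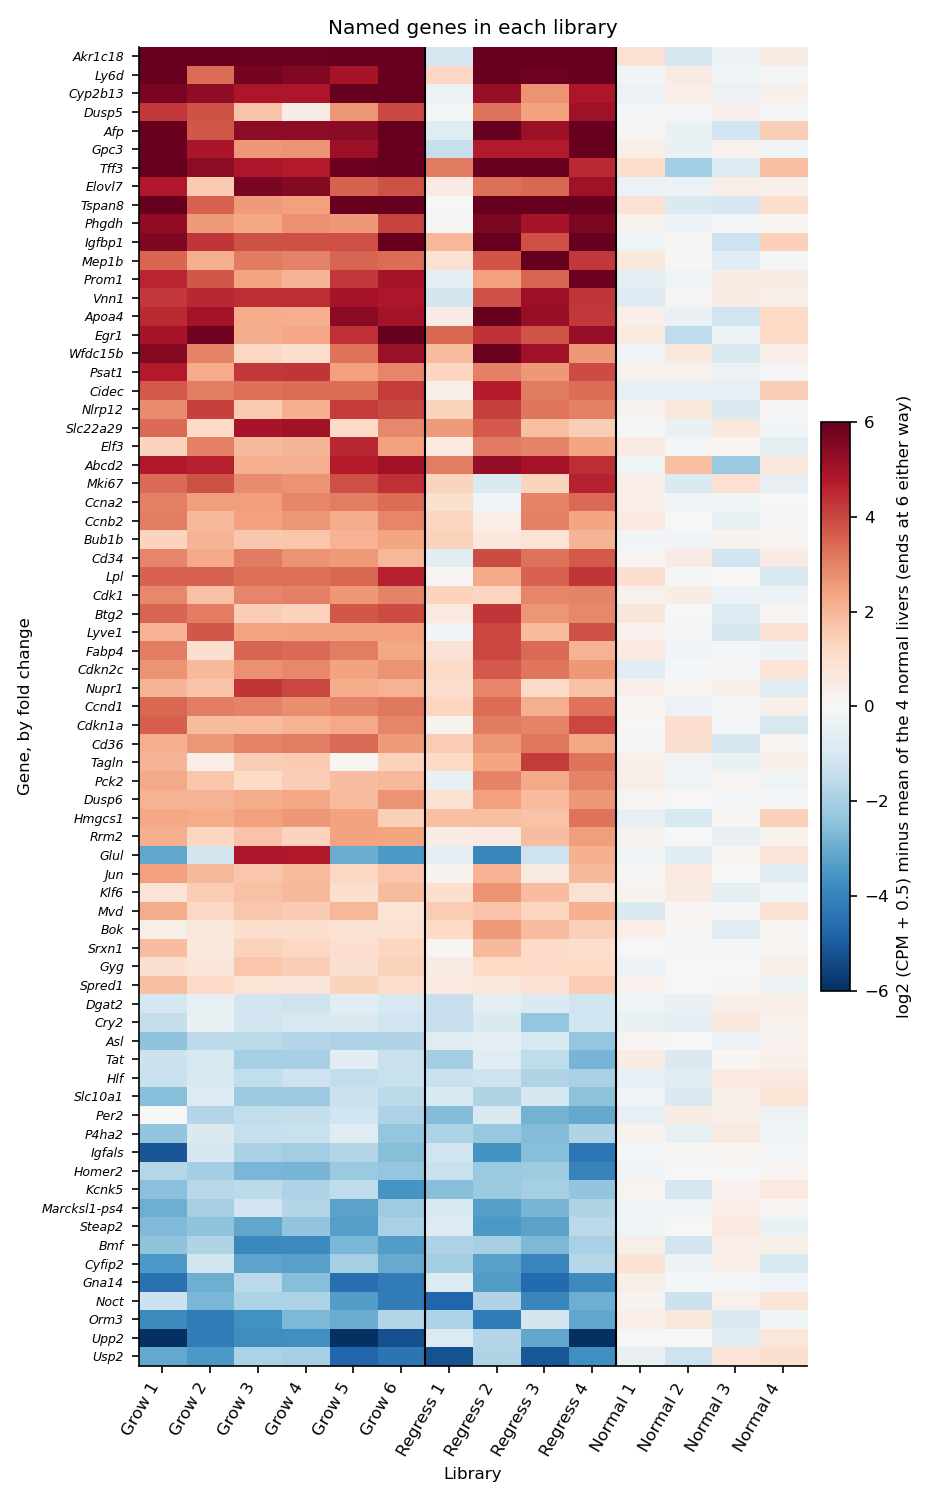
Level of the 71 genes named by rule in each library, as log2 (CPM + 0.5) minus the mean of the 4 normal livers, with genes ordered by fold change and libraries in the order Grow, Regress, Normal. Many rises are pale in Regress 1, as for Akr1c18 at 0 CPM, while some falls are as deep in it as elsewhere, as for Usp2 at 0.197 CPM.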

How the data were processed

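Gene expression was measured in 14 libraries made, per the labels' protocols, from total RNA with the TruSeq RNA kit v2, which does not mark strand, so a gene and an overlapping antisense gene cannot be told apart. The authors deposited estimated counts, also called expected counts, for 35230 RefSeq transcripts, and the values show that they are not whole numbers. Salmon 0.3.1, edgeR 3.14.0 and the build mm9 stand in the submitters' processing notes, with no roles given. 1 further column held no values.

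Rows were matched to symbols through RefSeq (GRCm38.p6, 26081 rows) or GENCODE M21 (144), summed per symbol and rounded. The 9005 unmatched rows, 3.52% to 12.1% of a library, stayed as features of their own. Of 30436 features 21431 had a symbol, and 12300 passed filterByExpr. edgeR 4.0.16 (R 4.3.3, limma 3.58.1) was fitted on all 14 libraries with TMM, robust quasi-likelihood dispersions and 3 groups, and tumours were the mean of Grow and Regress. The threshold was an adjusted p of 0.05 by the Benjamini-Hochberg method. The standard error is the absolute log2 fold change over the square root of F. Overlap was judged on log2 CPM with a prior count of 2. Counting intervals are exact, and the common dispersion gave a coefficient of biological variation of 0.484.

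The rule named the 12 largest rises and falls among called genes with a symbol, no overlap and a mean log2 CPM of 1 or more, up to 4 called members of each of 55 lists by adjusted p, and 8 fixed genes, 71 in all. Predicted genes were left out. The comparison, the lists and the rule were chosen with earlier results of these data known, and any further gene was picked with its values in view. The code was tested on simulated data. Alternatives were DESeq2 1.42.0, RLE factors, limma-voom, no filter, 1 tumour group, a replicate block, each library left out, Grow 3 and 4 summed, no Normal 4 and Regress 2, drug-free tumours, drug terms and removal of transcript length trends. Promoter windows came from a RefSeq table of GRCm38.p6 and no coordinates were taken from the count table. Not all members had a window there, as the counts given show.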

Additional observations from a re-analysis of the deposited data

Results flagged for a closer look

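In groups of 4 or 6 libraries, 1 library stood far from the rest of its own group in 18 of 213 combinations of a named gene and a group, by Dixon's test at the 95% level, where chance gives about 1 in 20. Regress 1 was the library in 5 of them: Akr1c18 at 0 CPM (204 to 269 CPM in the other Regress tumours), Phgdh at 0.394 CPM (26.3 to 42), Cd34 at 0.197 CPM (10 to 16), Tspan8 at 2.36 CPM (195 to 392) and Gyg at 7.29 CPM (11.8 to 12.3). Of the other Regress tumours, Regress 3 had Bmf at 2.32 CPM (4.15 to 4.53) and Regress 4 had Hmgcs1 at 466 CPM (159 to 171).

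Grow 1 stood low for Igfals at 3.59 CPM (24.5 to 72.6 CPM in the other Grow tumours) and Asl at 76.3 CPM (112 to 136), and high for the clock gene Per2 at 25 CPM (6.64 to 10.7). Grow 2 stood low for Cdk1 at 2.94 CPM (5.59 to 7.66) and high for Lyve1 at 24.6 CPM (7.4 to 9.96). Grow 6 stood low for Hmgcs1 at 132 CPM (224 to 289) and high for Lpl at 521 CPM (205 to 245).

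Among normal livers, Normal 2 had Bmf at 7.88 CPM (23.2 to 23.9), Normal 3 had Dusp5 at 0.149 CPM, which is 1 count against 0 in the others, and Normal 4 had Nupr1 at 0.291 CPM (0.876 to 1.05) and Cidec at 1.45 CPM (0 in the others). No named gene was called for Regress minus Grow.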

How the results depend on the processing

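Genes called in tumours against normal liver and genes called and outside the normal range in every tumour numbered 285 and 137. They were 1055 and 219 with DESeq2, 127 and 77 with limma-voom (45 higher and 82 lower, a share of higher calls of 35.4%), and 941 and 878 with drug-free tumours alone. The drug-free tumours are only 4, Grow 1, Grow 5 and Regress 4 with DMSO and Regress 2 with buffer. The 878 were thus judged over 4 tumours and the 137 over 10, so these 2 counts are not alike. With TMZ and SAHA terms 876 were called, with transcript length trends removed 659, and 176 and 185 of these lay outside in every tumour. Both were 0 without Normal 4 and Regress 2. With 1 library left out they ran from 0 to 991 and from 0 to 538. With RLE factors, no filter, 1 tumour group or Grow 3 and 4 summed, 214 to 324 were called. For Regress minus Grow DESeq2 called 31 and the other tools 0, and with 1 library left out the count ran from 0 to 1249. The replicate numbers of the titles did not pair the libraries (correlations of deviations from -0.522 to 0.197), and with them as a replicate block 0 genes were called (1312 at an unadjusted p under 0.05) and 0 shared, while all 285 kept their direction. Every called gene that was tested kept its direction under each alternative. The alternatives reuse libraries by which these genes were chosen, so the kept direction is no independent test. Of the named genes 1 reversed, the uncalled Glul, from 1.78 to -1.33 with drug terms, -1.04 with drug-free tumours and -0.56 with limma-voom. The causes were not tested. Libraries of 4707063 to 13394301 counts put many mitotic genes at a few counts in normal liver, where a lower level was not detectable.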

Other observations

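Genes outside the lists, named here after their values were seen (apart from Nlrp12, which the rule names), were also called. Not all of them lay outside the normal range in every tumour. The surface protein Mpzl1 had the widest gap of any called gene, 1.51 on the log2 scale, at 5.64 to 14.2 CPM (median 13.8) in Grow and 6.5, 8.9, 9.01 and 19 CPM in Regress, against 1.76, 1.05, 1.79 and 0.727 CPM in Normal (3.08 ± 0.41, adjusted p = 0.0109). The tubulin Tubb2a stood at 129 to 289 CPM (median 197) in Grow and 57.5, 271, 232 and 231 CPM in Regress, against 43.5, 36.1, 32.3 and 12.2 CPM in Normal (2.68 ± 0.46, adjusted p = 0.0213). The choline kinase Chka rose by 3.15 ± 0.65 (adjusted p = 0.0291), without overlap. Of single immune genes, the pattern receptors Tlr1 (4.96 ± 1.05, adjusted p = 0.0328), Tlr6 (1.90 ± 0.42, adjusted p = 0.0363) and Cd14 (3.06 ± 0.72, adjusted p = 0.0408), the inflammatory caspase Casp4 (2.37 ± 0.51, adjusted p = 0.0328) and the receptor Nlrp12 (4.21 ± 0.83, adjusted p = 0.0290) rose. Nlrp12 and Casp4 lay above the normal livers in all 10 tumours, and the other 3 in 9. The interferon-induced membrane protein Ifitm1 fell (-1.75 ± 0.43, adjusted p = 0.0470), with 8 of the 10 tumours below the normal livers.

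Of the falls, the folding enzymes Ero1b (-1.34 ± 0.31, adjusted p = 0.0397) and Pdia5 (-0.89 ± 0.21, adjusted p = 0.0403) of the endoplasmic reticulum, and the actin regulators Mtss1 (-1.27 ± 0.23, adjusted p = 0.0221) and Whamm (-1.14 ± 0.23, adjusted p = 0.0290), are in no list. Ero1b lay below the normal livers in 9 tumours, and Pdia5, Mtss1 and Whamm in 10. The carboxylesterase Ces2a, of a family with close copies, stood at 49.5 to 138 CPM (median 99.3) in Grow and 363, 97.3, 143 and 41.5 CPM in Regress, against 488, 414, 621 and 580 CPM in Normal (-2.08 ± 0.41, adjusted p = 0.0290). The steroid reductase Srd5a1 fell by 1.47 on the log2 scale (SE 0.30, adjusted p = 0.0291) and the glycerophosphate acyltransferase Gpat4 by 1.33 (SE 0.22, adjusted p = 0.0191). Srd5a1 lay below the normal livers in 9 tumours and Gpat4 in 10. The phosphatase Inpp5a, which ends inositol trisphosphate signals, stood at 8.71 to 15.9 CPM (median 11.5) in Grow and 25, 10.7, 15.7 and 16.2 CPM in Regress, against 38.1, 47, 38.8 and 36.2 CPM in Normal (-1.49 ± 0.21, adjusted p = 0.0109). The secreted factors Inhbc (-1.40 ± 0.25, adjusted p = 0.0221) and Gdf2 (-1.55 ± 0.30, adjusted p = 0.0290), both of the TGF-beta family, fell as well, and Gdf2 overlapped the normal livers in 1 tumour, Regress 4.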
